A study of Mus musculus with 12 samples.

Results

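The connexins and conduction system genes examined here are 9 genes, Gja1, Gja5, Gjc1, Gjd3, Hcn2, Hcn4, Tbx3, Irx3 and Etv1, taken by symbol from a table of raw gene counts that lists 24062 gene symbols. All 9 were in the table. The counts came from polyA RNA of whole mouse hearts in 4 groups of 3, with 1 library per mouse, from a study of the inner nuclear membrane protein LEMD2 in cardiomyopathy. Adult hearts were taken at 2 months from WT mice and from KI/KI mice, which are homozygous for the c.T38>G point mutation of Lemd2 in all tissues. Neonatal hearts were taken at postnatal day 1 (P1) from Lemd2-floxed mice, which have loxP sites on either side of the first exon and no Cre, and from cKO mice, which carry the floxed allele and the Myh6-Cre transgene. Myh6-Cre is active in cardiomyocytes, so the other cells of a cKO heart keep the gene. The 3 comparisons were adult KI/KI against WT, P1 cKO against floxed, and adult WT against P1 floxed. In the last comparison age and allele differ together and cannot be told apart.

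Connexins assemble into gap junction channels that pass current from one heart cell to the next. Working muscle of both chambers relies on connexin 43, while the atria and the fast ventricular conduction system also use connexin 40, and slowly conducting nodal tissue uses connexin 45 and, in the mouse, the connexin encoded by Gjd3. HCN channels carry the pacemaker current of nodal cells, and transcription factors such as TBX3, IRX3 and ETV1 set apart nodal tissue or the fast-conducting atrial and Purkinje muscle from the rest of the heart. Because whole hearts were sequenced, fewer cells of a type and less RNA per cell cannot be told apart.

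Levels are given as CPM, counts scaled to a common library size over the 12 hearts. The level of the targeted gene, Lemd2, was 24.3, 25.0 and 25.4 CPM in the floxed and 6.59, 13.1 and 11.4 CPM in the cKO group (log2 fold change -1.27 ± 0.23 SE, adjusted p = 0.0159, edgeR). In the adults it was at 32.0, 34.8 and 32.9 CPM in WT and at 25.7, 25.2 and 24.8 CPM in KI/KI hearts (-0.40 ± 0.06, adjusted p = 0.186 by edgeR and 0.000384 by DESeq2). Library totals ranged from 37063669 to 44789753 counts. One cKO library, replicate 4, had 4 Y-linked genes at a sum of 0.0798 CPM, against 223 to 375 CPM in the other 11 hearts. Of those 11, cKO replicates 5 and 6 were the lowest, at 262 and 223 CPM. The 8 genes of a lung marker list summed to 100.9 CPM in WT replicate 3, to 35.1 in KI/KI replicate 4, to 30.8 and 48.9 in floxed replicates 1 and 2 and to 22.4 in cKO replicate 4, and to between 0.506 and 5.27 CPM in the other 7. Cardiomyocyte markers were abundant in every library, at sums of 31288 to 94746 CPM over 9 genes.

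Promoter windows of 6 of the 9 genes, all but Gjc1, Gjd3 and Tbx3, were matched in the RefSeq table (GRCm38.p6). The 250 bases before the transcription start are shown for 2 connexins and 2 HCN channels, because the levels of Gja1 and Gja5, and of Hcn2 and Hcn4, are compared with each other below. They lie on the plus strand at chr10:56377050-56377299 (Gja1), chr3:97032152-97032401 (Gja5), chr10:79716384-79716633 (Hcn2) and chr9:58822699-58822948 (Hcn4). The start is that of the RefSeq entry. For Gja5 the window lies inside the annotated gene span (chr3:96904693-97077416), which begins upstream of it. Which start is used in these hearts was not tested. Capitals mark the matches to the motifs searched on both strands, a T-box half-site (AGGTGTGA), an NKX site (TTAAGTG), the motif of GATA factors (AGATAA), the core of the MEF2 motif, an AP-1 site (TGAGTCA) and a GC box (GGGCGG).
Gja1: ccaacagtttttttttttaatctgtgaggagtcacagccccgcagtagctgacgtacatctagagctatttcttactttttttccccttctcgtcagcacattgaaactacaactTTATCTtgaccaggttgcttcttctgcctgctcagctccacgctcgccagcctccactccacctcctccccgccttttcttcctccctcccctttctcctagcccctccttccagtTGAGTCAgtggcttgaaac
Gja5: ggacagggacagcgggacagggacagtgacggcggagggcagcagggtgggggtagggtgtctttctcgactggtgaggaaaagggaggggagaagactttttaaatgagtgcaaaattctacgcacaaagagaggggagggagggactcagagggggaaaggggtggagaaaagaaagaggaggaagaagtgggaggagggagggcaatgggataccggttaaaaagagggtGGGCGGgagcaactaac
Hcn2: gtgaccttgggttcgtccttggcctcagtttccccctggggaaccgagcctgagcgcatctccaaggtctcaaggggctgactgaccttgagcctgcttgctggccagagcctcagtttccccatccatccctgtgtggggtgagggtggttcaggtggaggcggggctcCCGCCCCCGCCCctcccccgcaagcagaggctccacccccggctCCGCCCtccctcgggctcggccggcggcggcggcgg
Hcn4: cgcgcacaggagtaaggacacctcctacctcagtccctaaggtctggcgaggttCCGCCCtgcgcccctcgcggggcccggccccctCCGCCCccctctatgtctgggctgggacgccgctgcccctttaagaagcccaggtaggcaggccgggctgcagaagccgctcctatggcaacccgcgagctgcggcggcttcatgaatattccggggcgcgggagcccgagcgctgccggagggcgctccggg
The Gja1 window held a GATA match on the minus strand at 135 to 130 bases before the start and an AP-1 match at 19 to 13 bases before it. The Gja5 window held a GC box at 17 to 12 bases before the start. Hcn2 held 3 GC boxes, at 80 to 75, 74 to 69 and 36 to 31 bases before the start, and Hcn4 held 2, at 196 to 191 and 163 to 158 bases before it, all 5 on the minus strand. The window of Irx3 and both windows of Etv1 had none of these letters. Of 32851 RefSeq promoter windows of the same length, 32.7% held a GC box, 9.99% a GATA site, 4.46% an AP-1 site, 3.2% a MEF2 core, 2.1% an NKX site and 1.12% the T-box half-site. GC content was 70.4% in the Hcn2 window, 71.2% in Hcn4, 56.4% in Gja5 and 50% in Gja1, beside a median of 52.4% over all windows.

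Per length of merged exons, Gja1 was by far the most abundant of the 9 genes in every group, at mean levels of 222 (WT), 241 (KI/KI), 242 (floxed) and 256 (cKO) CPM per kb. In adult WT hearts Irx3 (12.9), Gjc1 (11.8) and Hcn2 (10.8) followed, with ranges over the 3 hearts that overlapped from one to the next, then Gja5 (6.35) and Tbx3 (6.31), which also overlapped, then Hcn4 (3.56), Etv1 (2.79) and Gjd3 (0.248). In P1 floxed hearts the order after Gja1 was Gjc1 (27.3), Gja5 (20.2), Irx3 (14.8), Tbx3 (4.74), Etv1 (4.22), Hcn4 (2.99), Gjd3 (1.10) and Hcn2 (0.929). There only Tbx3 and Etv1, and Gjd3 and Hcn2, overlapped with their neighbor. The order therefore differed between ages mainly in the place of Hcn2, among the higher genes in the adult and last at P1, and in the place of Gja5. In KI/KI hearts the order was that of WT but with Etv1 (3.01) above Hcn4 (1.88), whose ranges did not overlap. In cKO hearts Irx3 (12.9) stood above Gja5 (7.86), without overlap, and Hcn2 (1.24) above Gjd3 (0.588), with overlap.

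**Figure D1:**
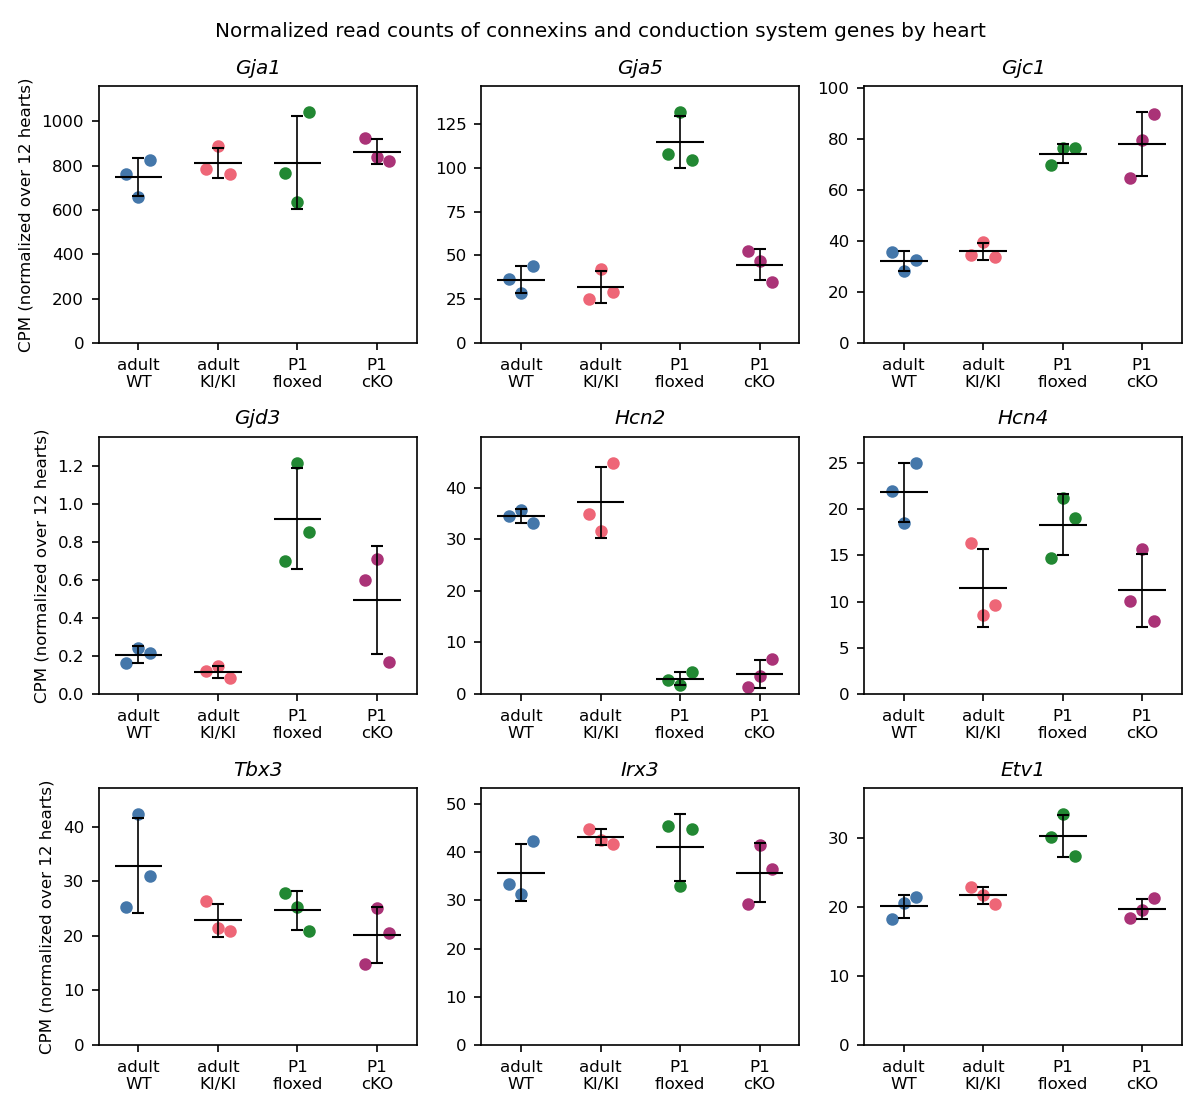
Normalized read counts (CPM, vertical axes from 0, each panel with its own scale) of the 9 genes in each of the 12 hearts. Points are single hearts in replicate order, horizontal lines are group means and bars are 1 SD (n = 3). Gja5 and Etv1 stand lower in all 3 cKO hearts than in all 3 floxed hearts, Hcn4 stands lower in all 3 KI/KI hearts than in all 3 WT hearts, and Hcn2 is high only in the adult groups.

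The cKO hearts differed from floxed hearts in 2 of the 9 genes, Gja5 and Etv1, both lower. Over all 15317 genes tested, 16.5% were called at an adjusted p under 0.05 by edgeR and 7.31% were called lower, and 4.48% were called with a change above 2-fold, a size reached by Gja5 alone among the 9. Both genes had cKO hearts entirely below floxed hearts, a separation seen in 39% of all tested genes. DESeq2 called these and Hcn4 (24.6% of genes). In the adults, none of the 8 genes tested was called between KI/KI and WT by edgeR (0% of 14592 tested genes), while Hcn4 and Tbx3 had an unadjusted p under 0.05 (16% of tested genes) and Hcn4 was called by DESeq2 (3.56% of genes). Gjd3 did not reach the minimum count for that test. Between adult WT and P1 floxed hearts, 5 of the 9 genes were called, where 64.7% of 15183 tested genes were. Gja5, Gjc1, Gjd3 and Etv1 were lower in the adult and Hcn2 was higher, beside 33.3% of tested genes called lower and 31.4% called higher. The groups did not overlap for these 5 genes, as for 70.8% of tested genes, and DESeq2 called these and Tbx3 (57.9%).

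**Figure D2:**
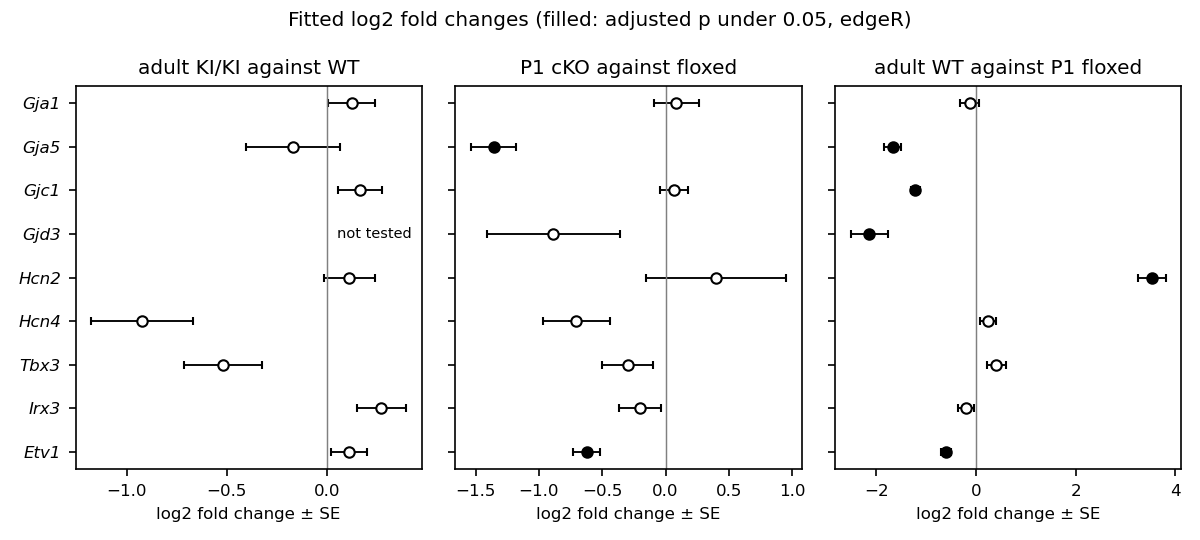
Fitted log2 fold changes (horizontal axes, each panel with its own scale) of the 9 genes in the 3 comparisons, first group over second, with bars of 1 SE (n = 3 hearts per group). Filled points have an adjusted p under 0.05 by edgeR: none in adult KI/KI against WT, Gja5 and Etv1 in P1 cKO against floxed, and Gja5, Gjc1, Gjd3, Hcn2 and Etv1 in adult WT against P1 floxed.

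Gja1 (chr10:56377330-56402513, plus strand, GRCm38) encodes connexin 43, the main connexin of working ventricular muscle. It was at 763, 657 and 826 CPM in WT hearts, 786, 890 and 765 in KI/KI, 765, 634 and 1044 in floxed and 926, 841 and 819 in cKO hearts. The 4 groups overlapped throughout. No difference passed the test: the log2 fold change was 0.12 ± 0.12 SE (adjusted p = 0.608) in KI/KI against WT, 0.09 ± 0.18 (adjusted p = 0.765) in cKO against floxed and -0.13 ± 0.18 (adjusted p = 0.568) in adult WT against P1 floxed, all by edgeR. The widest spread was within the floxed group, whose replicate 3 was the highest of all 12 hearts and whose replicate 2 was the lowest.

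Gja5 (chr3:96904693-97077416, plus strand) encodes connexin 40, found in atrial muscle, the His-Purkinje system and arterial endothelium. Its level was 108, 132 and 104 CPM in the floxed and 52.3, 47.0 and 34.9 CPM in the cKO group. Every cKO heart was thus below every floxed heart, and the cKO levels lay near those of adult hearts, which were 36.3, 28.3 and 43.8 CPM in WT and 24.9, 42.1 and 29.1 CPM in KI/KI. The gene was 2.56-fold lower in cKO than in floxed hearts (log2 fold change -1.36 ± 0.18 SE, adjusted p = 0.00793, edgeR) and 3.18-fold lower in adult WT than in floxed hearts (-1.67 ± 0.17, adjusted p = 9.5e-05, edgeR). These values share the floxed hearts. In KI/KI against WT it was -0.17 ± 0.24 (adjusted p = 0.736, edgeR), with overlapping groups. Without floxed replicate 1 the cKO difference was -1.41 with an adjusted p of 0.0525 by edgeR, and it was called without any other single heart.

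The lists for cells that use connexin 40 differed in their counts in cKO hearts. Of 15 ventricular conduction genes tested, 4 were called lower and 1 higher, where 16.5% of all tested genes were called and 7.31% were called lower. In that list 10 had a negative log2 fold change (median -0.21, against -0.01 over all tested genes). The 6 genes of an arterial endothelial list summed to 130 to 141 CPM in floxed and to 178 to 197 CPM in cKO hearts, with 1 gene called higher and none lower. The 8 genes of an atrial cardiomyocyte list summed to 1077, 1710 and 1510 CPM in floxed and to 3150, 2062 and 574 CPM in cKO hearts, with 1 gene called lower, none higher, and none of the 8 at 0. The atrial sums of cKO replicates 4 and 5 lay above all floxed hearts and that of replicate 6 below them, and 5 of the 8 genes had a negative log2 fold change (median -0.10). With the atrial marker score as a covariate the Gja5 log2 fold change was -1.30 (adjusted p = 0.000649, edgeR). The 9 markers of cardiomyocytes, the cells in which Cre is active, summed to 41114 to 47746 CPM in floxed and to 31288 to 36051 CPM in cKO hearts, with 4 called lower and 1 higher. Beyond the fit with the atrial score, from which no conclusion is drawn, the part of the atrial, conduction, arterial and cardiomyocyte lists in the Gja5 difference was not tested. Exons of Gja5 share 165 bases with Gpr89 on the opposite strand, and the strand setting of the counting is not given in the sources used here.

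Gjc1 (chr11:102799579-102819700, minus strand) encodes connexin 45, the connexin of nodal tissue and the earliest one in the embryonic heart. It was at 69.9, 76.2 and 76.6 CPM in floxed and at 64.5, 79.6 and 89.7 CPM in cKO hearts, and at 35.8, 28.2 and 32.4 CPM in WT and 34.3, 39.8 and 33.6 CPM in KI/KI hearts. Both P1 groups stood above both adult groups, and the genotypes overlapped within each age. The gene was 2.32-fold lower in adult WT than in P1 floxed hearts (log2 fold change -1.21 ± 0.10 SE, adjusted p = 1.92e-05, edgeR). Genotype differences were 0.07 ± 0.11 (adjusted p = 0.71) at P1 and 0.17 ± 0.11 (adjusted p = 0.465) in the adult by edgeR.

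Gjd3 (chr11:98982180-98983016, minus strand, annotated as a single exon) encodes a connexin of the mouse atrioventricular node. It had 31, 56 and 40 counts in floxed, 30, 34 and 7 in cKO, 5, 8 and 8 in WT and 4, 6 and 3 in KI/KI hearts. In CPM these were 0.700, 1.22 and 0.853 in floxed hearts and 0.161, 0.244 and 0.218 in WT hearts. It was 4.40-fold lower in adult WT than in P1 floxed hearts (log2 fold change -2.14 ± 0.37 SE, adjusted p = 0.00125, edgeR). The cKO difference was -0.89 ± 0.52 (adjusted p = 0.272, edgeR), with cKO replicate 6 far below the others, replicate 4 below the floxed range and replicate 5 just inside it. All 3 KI/KI hearts had less than any WT heart, at 0.119, 0.145 and 0.0843 CPM, but these are single-digit counts near the floor of 3 counts and were not tested.

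As a share of the 4 connexins per length, Gja1 made up 92.4% ± 0.317 (SD, n = 3) in WT, 92.7% ± 0.459 in KI/KI, 82.7% ± 4.32 in floxed and 87.3% ± 1.60 in cKO hearts. Gja5 made up 2.62% ± 0.273 in WT, 2.14% ± 0.423 in KI/KI, 7.24% ± 2.26 in floxed and 2.67% ± 0.436 in cKO hearts. Gjc1 made up 9.65% ± 1.89 in floxed and 9.84% ± 2.02 in cKO hearts, and 4.92% ± 0.422 and 5.07% ± 0.0365 in WT and KI/KI hearts. The Gja5 share in cKO hearts (2.17 to 2.98%) did not overlap the floxed range (5.14 to 9.64%) and overlapped that of adult WT hearts, whereas the Gjc1 share was 7.69 to 11.7% in cKO and 7.88 to 11.6% in floxed hearts.

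Hcn2 (chr10:79716634-79736108, plus strand) encodes a pacemaker channel that is also present in working muscle. It was at 34.6, 35.7 and 33.1 CPM in WT and 34.9, 31.7 and 44.8 CPM in KI/KI hearts, but at 2.78, 1.80 and 4.33 CPM in floxed and 1.44, 3.58 and 6.85 CPM in cKO hearts. All adult hearts stood far above all P1 hearts, and the genotypes overlapped at both ages. The gene was 11.5-fold higher in adult WT than in P1 floxed hearts (log2 fold change 3.53 ± 0.28 SE, adjusted p = 3.11e-05, edgeR), the largest difference among the 9 genes in any of the 3 comparisons. It was 0.11 ± 0.13 (adjusted p = 0.671) in KI/KI against WT and 0.40 ± 0.55 (adjusted p = 0.641) in cKO against floxed by edgeR. The cKO value turned to -0.24 without cKO replicate 6, the heart with the highest P1 level and the lowest atrial marker sum.

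Hcn4 (chr9:58823412-58863175, plus strand) encodes the main pacemaker channel of the sinoatrial and atrioventricular nodes. It was at 21.9, 18.5 and 24.9 CPM in WT hearts and at 16.3, 8.54 and 9.61 CPM in KI/KI hearts. Every KI/KI heart was below every WT heart, a separation seen in 21.8% of tested genes. The log2 fold change of -0.93 ± 0.25 SE did not pass the test across all genes by edgeR (adjusted p = 0.236) and passed it by DESeq2 (adjusted p = 0.0163). Without KI/KI replicate 4, the highest of the 3, it was -1.26 with an adjusted p of 0.0455 by edgeR. At P1 the gene was at 14.7, 21.2 and 19.0 CPM in floxed and at 10.1, 15.6 and 7.92 CPM in cKO hearts, where cKO replicate 5 overlapped floxed replicate 1. That difference was -0.70 ± 0.26 (adjusted p = 0.11 by edgeR, 0.0433 by DESeq2). Adult WT and P1 floxed hearts differed by 0.25 ± 0.16 (adjusted p = 0.215, edgeR), so that Hcn4, unlike Hcn2, showed no called difference with age.

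In the adults edgeR called no gene of the atrial, cardiomyocyte, fibroblast or neural marker lists, as it called none of all 14592 tested genes. The group sums overlapped for all 4 lists, but only narrowly for the fibroblast and neural lists. Log2 fold changes were negative for 8 of 9 cardiomyocyte markers and 5 of 5 tested neural and glial markers. They were positive for 7 of 8 fibroblast markers (median 0.50) and 6 of 8 atrial markers. The 8 atrial markers summed to 2025 to 2148 CPM in WT and to 1963 to 2854 CPM in KI/KI hearts. The 9 cardiomyocyte markers summed to 82744 to 94746 CPM in WT and to 63685 to 84455 CPM in KI/KI hearts, and the 8 fibroblast markers to 1990 to 2389 and 2387 to 4368 CPM. The 7 neural and glial markers summed to 29.5 to 35.2 CPM in WT and 19.3 to 29.6 CPM in KI/KI hearts. At P1 they summed to 19.3 to 34.4 CPM in floxed and 12.02 to 17.9 CPM in cKO hearts. All 7 were tested there and had a negative log2 fold change (median -0.91). By edgeR 2 of the 7 were called lower and none higher, where 7.31% of all tested genes were called lower. With the atrial marker score as a covariate, the Hcn4 log2 fold change was -0.83 in KI/KI against WT (adjusted p = 0.372, edgeR). In cKO against floxed it was -0.64 with that covariate (adjusted p = 0.0835, edgeR). Beyond these fits, from which no conclusion is drawn, the part of the marker lists in the Hcn4 values was not tested.

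Tbx3 (chr5:119670669-119684724, plus strand) encodes a repressor of working muscle genes in the nodes and the atrioventricular bundle. It was at 25.2, 42.4 and 30.9 CPM in WT, 26.3, 21.4 and 20.9 in KI/KI, 27.8, 25.2 and 20.9 in floxed and 14.8, 25.1 and 20.5 in cKO hearts. Groups overlapped in all 3 comparisons. The log2 fold change was -0.52 ± 0.19 SE in KI/KI against WT (adjusted p = 0.285), -0.30 ± 0.20 in cKO against floxed (adjusted p = 0.324) and 0.41 ± 0.19 in adult WT against P1 floxed (adjusted p = 0.101) by edgeR. DESeq2 gave an adjusted p of 0.0453 for the last, and edgeR gave 0.0271 for it without WT replicate 1.

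Irx3 (chr8:91798525-91802067, minus strand) encodes an Iroquois factor of the His-Purkinje system. It was at 33.4, 31.3 and 42.4 CPM in WT, 44.9, 42.6 and 41.7 in KI/KI, 45.3, 32.9 and 44.7 in floxed and 29.1, 41.4 and 36.6 in cKO hearts. The KI/KI hearts were close together, and WT replicate 3 reached into their range. No difference passed the test, with log2 fold changes of 0.27 ± 0.12 SE (adjusted p = 0.333) in KI/KI against WT, -0.20 ± 0.17 (adjusted p = 0.416) in cKO against floxed and -0.20 ± 0.16 (adjusted p = 0.305) in adult WT against P1 floxed by edgeR. Its exons share 124 bases with the antisense gene Irx3os, so that reads of the pair may not be told apart.

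Etv1 (chr12:38779380-38870484, plus strand) encodes an ETS factor of fast-conducting atrial and Purkinje muscle. It was at 30.1, 33.6 and 27.5 CPM in floxed and at 18.4, 19.6 and 21.3 CPM in cKO hearts, and at 18.3, 20.6 and 21.5 CPM in WT and 22.9, 21.8 and 20.4 CPM in KI/KI hearts. The 3 floxed hearts stood above all 9 others. The gene was 1.54-fold lower in cKO than in floxed hearts (log2 fold change -0.62 ± 0.11 SE, adjusted p = 0.0143, edgeR) and 1.52-fold lower in adult WT than in floxed hearts (-0.60 ± 0.11, adjusted p = 0.00168, edgeR), values that share the floxed hearts. In KI/KI against WT it was 0.11 ± 0.09 (adjusted p = 0.543, edgeR). The cKO call was lost when floxed replicate 1, floxed replicate 2 or cKO replicate 5 was left out, with adjusted p-values of 0.0764, 0.0525 and 0.0684 by edgeR and log2 fold changes of -0.64, -0.55 and -0.61.

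The difference between the 2 genotype effects was tested in a fit of all 12 hearts, in which adult and P1 hearts differ in age as well as in allele. Of the 9 genes only Etv1 was called, where 2.51% of 15729 genes were, with a cKO effect lower than the KI/KI effect by -0.73 ± 0.14 SE on the log2 scale (adjusted p = 0.0304, edgeR). This call was kept in 5 of 12 fits that left out 1 heart, with a range of -0.80 to -0.65, and was lost without WT replicate 1 or 2, KI/KI replicate 4 or 6, floxed replicate 1 or 2, or cKO replicate 5. For Gja5 the difference was -1.18 ± 0.31 (adjusted p = 0.07 by edgeR and 0.00718 by DESeq2, which called 9.13% of genes). For Hcn4, lower on average in both models, it was 0.22 ± 0.40 (adjusted p = 0.796, edgeR).

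Ratios were also taken within each heart, which removes the library scaling. Gja5 counts were 14.1, 20.8 and 10.01% of Gja1 counts in the floxed group and 5.64, 5.58 and 4.26% in the cKO group. They were 4.76, 4.31 and 5.30% in WT and 3.16, 4.73 and 3.80% in KI/KI hearts. The cKO hearts thus lay below all floxed hearts and reached into the adult range. The log2 ratio was lower by -1.48 in cKO than in floxed hearts and by -1.58 in adult WT than in floxed hearts, each with p = 0.1 in a two-sided exact permutation test, the smallest p that 3 hearts against 3 allow. For Gjc1 over Gja1 the difference was -0.05 in cKO against floxed hearts (exact permutation p = 0.8) and -1.12 in adult WT against floxed hearts (exact permutation p = 0.1).

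In normalized counts, which do not correct for length, Hcn2 exceeded Hcn4 in every adult heart and lay below it in every P1 heart. Per kb of exon it lay above Hcn4 in cKO replicate 6 also, at 2.15 against 1.30 CPM per kb. The ratio of their normalized counts, with the prior count of 2 added, was 1.58, 1.93 and 1.32 in WT hearts and 2.13, 3.69 and 4.65 in KI/KI hearts, and 0.191, 0.0872 and 0.230 in floxed and 0.146, 0.232 and 0.866 in cKO hearts. All KI/KI hearts were above all WT hearts, with a log2 difference of 1.06 (exact permutation p = 0.1), and adult WT hearts exceeded floxed hearts by 3.34 (exact permutation p = 0.1). The cKO and floxed hearts overlapped, with a difference of 0.98 (exact permutation p = 0.4) that fell to 0.24 without cKO replicate 6.

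**Figure D3:**
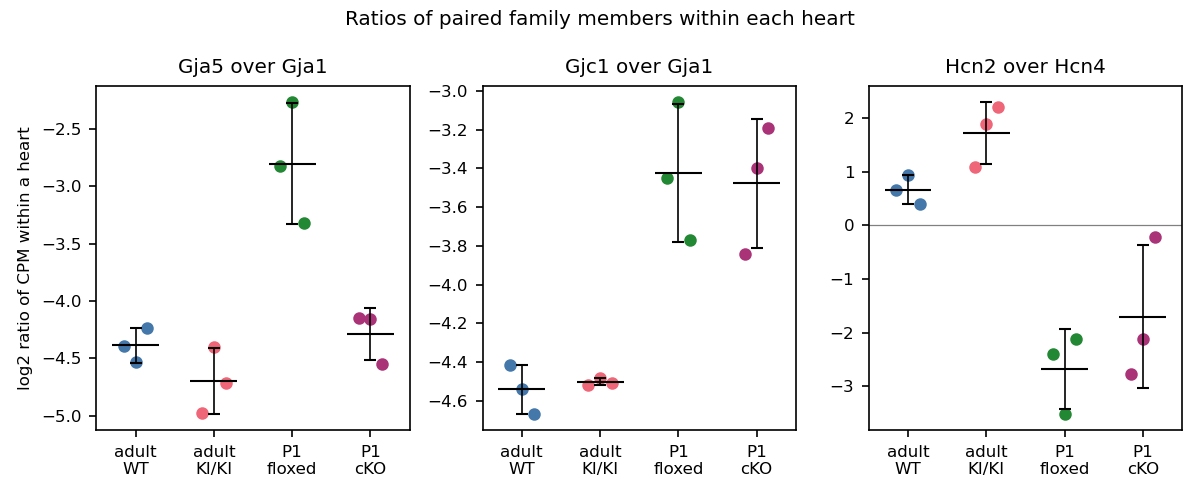
Log2 ratios of normalized counts within each heart (vertical axes, each panel with its own scale) for Gja5 over Gja1, Gjc1 over Gja1 and Hcn2 over Hcn4. Points are single hearts, lines are group means and bars are 1 SD (n = 3). For Gja5 over Gja1 all cKO hearts lie below all floxed hearts and cKO replicates 4 and 5 lie just above all adult hearts, for Gjc1 over Gja1 they stand with the floxed hearts, and Hcn2 over Hcn4 is above 0 only in the adult groups.

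The other genes of each pathway were taken from 4 lists written from general knowledge, with earlier results of these data known. Of 19 other connexins and pannexins, 6 had enough counts to test at P1, where 1 was called higher and 2 lower in cKO hearts (median log2 fold change -0.13, against -0.01 over all tested genes). Over all tested genes 16.5% were called, with 7.31% called lower. Gja4, the arterial connexin 37, was at 12.9, 12.3 and 13.3 CPM in floxed and at 28.0, 30.7 and 22.3 CPM in cKO hearts. It rose in cKO hearts (1.07 ± 0.14 SE, adjusted p = 0.00791, edgeR), in the same hearts in which Gja5 fell, and beside the higher arterial endothelial sums given above. Panx2, a pannexin, was at 3.79, 4.61 and 3.99 CPM in floxed and 0.898, 1.85 and 1.43 CPM in cKO hearts (-1.57 ± 0.28, adjusted p = 0.0155, edgeR). Gja3, named after its values were seen, made up the remaining call (-0.39 ± 0.10, adjusted p = 0.0369, edgeR). No gene of this list was called without floxed replicate 1, and 1 was without floxed replicate 2. The share of all genes called in such fits is not given here, so these counts are not read as particular to the list. In the adults none of 6 was called by edgeR (median -0.05, against 0.00 over all tested genes). An unadjusted p under 0.05, seen in 16% of all tested genes, was found for 1 of the 6. This was Panx1, an ATP release channel, which DESeq2 called. It was at 1.93, 1.80 and 1.96 CPM in WT and 3.10, 7.77 and 4.19 CPM in KI/KI hearts (1.41 ± 0.35, adjusted p = 0.212, edgeR).

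Of 20 pacemaker and nodal genes, all tested at P1, 1 was called higher and 3 lower in cKO hearts. Over all tested genes 16.5% were called, with 7.31% called lower. In the list 16 of 20 had a negative log2 fold change (median -0.37). Cacna1d, the calcium channel subunit Cav1.3 of sinoatrial and atrioventricular nodal cells, was at 40.4, 40.7 and 32.0 CPM in floxed and at 15.1, 16.0 and 10.6 CPM in cKO hearts. It fell in cKO hearts, and its groups did not overlap, as in 39% of tested genes (-1.44 ± 0.19 SE, adjusted p = 0.00793, edgeR). Bmp4, a secreted signal of the developing atrioventricular canal and outflow tract, rose from 9.34, 8.17 and 10.4 CPM to 38.2, 36.3 and 16.8 CPM (1.71 ± 0.32, adjusted p = 0.0173, edgeR). Kcnj5, a subunit of the acetylcholine-gated potassium channel, and Cacna1h, a T-type calcium channel, were the other 2 genes called lower and are named after their values were seen (-0.998 ± 0.14, adjusted p = 0.00901, and -0.75 ± 0.11, adjusted p = 0.0109, edgeR). None of the 20 was called without floxed replicate 1, and 7 were without cKO replicate 4. Here too the share of all genes called in these fits is not given, so the counts are not particular to this list.

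In the adults none of the 18 pacemaker and nodal genes tested was called by edgeR (median -0.03), against 3 by DESeq2 and 5 with an unadjusted p under 0.05. The shares over all tested genes were 0%, 3.56% and 16%. The smallest unadjusted p-values were those of Cacna1g, the T-type channel Cav3.1, and Cpne5, a calcium-binding copine. Cacna1g was at 68.7, 65.6 and 65.9 CPM in WT and 45.4, 46.9 and 37.5 CPM in KI/KI hearts (-0.62 ± 0.09 SE, adjusted p = 0.186, edgeR). Cpne5 was at 9.52, 8.46 and 9.14 CPM in WT and 5.30, 2.20 and 4.02 CPM in KI/KI hearts (-1.24 ± 0.29, adjusted p = 0.209, edgeR). In both, every KI/KI heart was below every WT heart, as it was for Hcn4, where 21.8% of tested genes had groups that did not overlap.

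Of 16 ventricular conduction genes, 15 were tested at P1, and 1 was called higher and 4 lower in cKO hearts (median -0.21). Over all tested genes 16.5% were called, with 7.31% called lower. The gene called higher was Nrg1, a growth factor that endocardial and endothelial cells release and that induces conduction fate in the embryo. It was at 1.13, 2.46 and 2.26 CPM in floxed and at 21.6, 19.8 and 5.61 CPM in cKO hearts (3.02 ± 0.56 SE, adjusted p = 0.0178, edgeR). The 4 called lower, named after their values were seen, were the transcription factors Nkx2-5 (-0.36), Irx2 (-0.89) and Irx4 (-0.84) and the axon guidance signal Sema3a (-0.68), with adjusted p-values of 0.0301 to 0.0366 by edgeR. None of the list was called without floxed replicate 1 or 2, 1 was without cKO replicate 5, and 2 were without floxed replicate 3. Again the share of all genes called in these fits is not given.

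In the adults none of the 16 ventricular conduction genes was called by edgeR, 5 were by DESeq2 and 7 had an unadjusted p under 0.05. The shares over all tested genes were 0%, 3.56% and 16%. In the list 11 of 16 had a negative log2 fold change (median -0.35, against 0.00 over all tested genes). Cntn2, contactin 2, a surface marker of Purkinje cells, was at 31.4, 27.9 and 49.1 CPM in WT and 16.9, 11.6 and 12.3 CPM in KI/KI hearts (-1.41 ± 0.25 SE, adjusted p = 0.187, edgeR). Scn10a, the sodium channel Nav1.8, was at 7.62, 7.85 and 9.38 CPM in WT and 3.93, 1.84 and 3.20 CPM in KI/KI hearts (-1.47 ± 0.27, adjusted p = 0.187, edgeR). Neither gene overlapped between the adult groups, as was so for 21.8% of tested genes. At P1 Cntn2 was at 10.1, 12.4 and 9.60 CPM in floxed and at 19.7, 30.5 and 11.4 CPM in cKO hearts, which overlapped (0.94 ± 0.34, adjusted p = 0.1, edgeR).

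Of 14 partners of connexins at the intercalated disc, none was called in the adults by edgeR or DESeq2 (median -0.02), and the smallest unadjusted p-values by edgeR were 0.0715 for Ctnna3, alpha-T-catenin, and 0.0937 for Mapre1, the microtubule end protein EB1. At P1, 2 were called higher and none lower (median -0.08), where 16.5% of all tested genes were called. These were Cxadr, the coxsackievirus and adenovirus receptor of cell junctions (0.29 ± 0.07 SE, adjusted p = 0.0338), and Mapre1 (0.33 ± 0.08, adjusted p = 0.0353), both by edgeR and named after their values were seen. Neither was called when cKO replicate 4 or 5, or floxed replicate 1 or 2, was left out, and 1 was without floxed replicate 3. For these fits also, the share of all genes called is not given.

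With age, calls in these lists went both ways. Between adult WT and P1 floxed hearts, 6 of 20 pacemaker and nodal genes were called higher and 9 lower in the adult. The counts were 4 and 8 of 16 ventricular conduction genes, 5 and 7 of 14 disc partners, and none and 2 of 6 tested connexins and pannexins. Over all tested genes 31.4% were called higher and 33.3% lower. The list medians were -0.52, -0.57, -0.06 and -0.20, beside -0.04 over all tested genes. Smoc2, a matrix protein, was at 121 ± 7.98 CPM (SD, n = 3) in WT and 30.0 ± 3.12 CPM in floxed hearts (2.01, adjusted p = 1.96e-06, edgeR), and Kcnj3, the partner subunit of Kcnj5, at 125 ± 3.67 and 25.4 ± 4.48 CPM (2.30, adjusted p = 3.19e-06, edgeR). The sinus node factor Tbx18 and the membrane protein Bves were lower in the adult (-1.98 and -1.29, adjusted p = 6.25e-06 and 6.88e-05, edgeR). The channel subunit Cacna2d1 was higher (2.04, adjusted p = 3.43e-06, edgeR), while the ventricular factor Irx4 and the potassium channel subunit Kcne1 were lower (-1.17 and -3.62, adjusted p = 3.14e-05 and 0.000114, edgeR). Of the disc partners, desmoplakin (Dsp) rose past 2-fold (1.41, adjusted p = 1.85e-05, edgeR). Panx1, of the list of other connexins and pannexins, was lower in the adult (-1.83, adjusted p = 1.94e-05, edgeR).

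**Figure D4:**
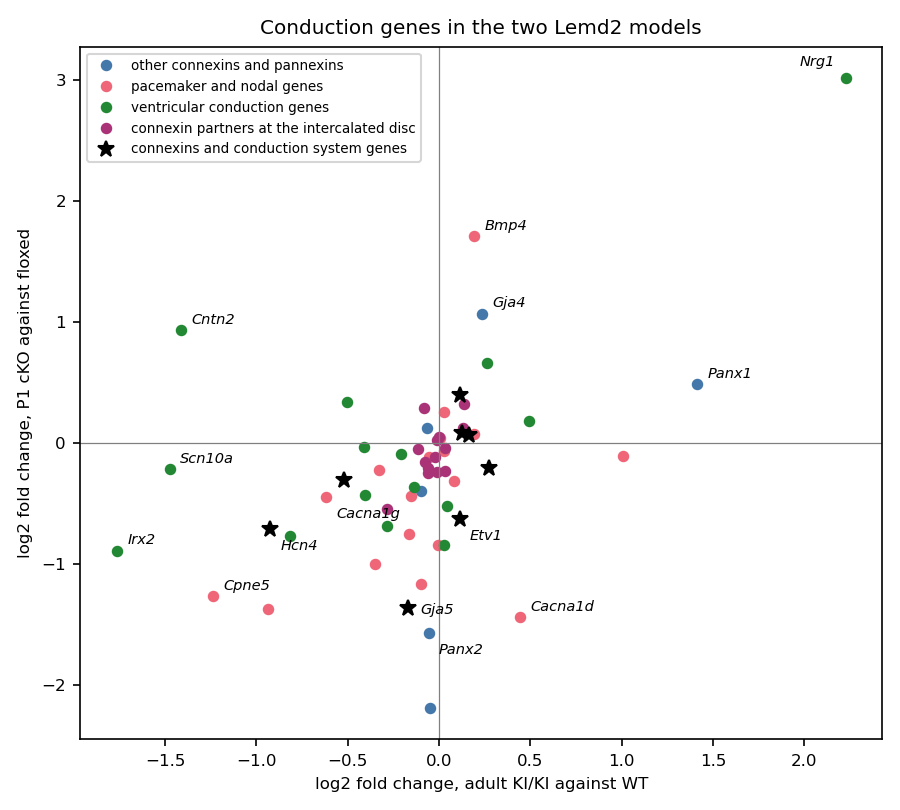
Log2 fold changes of each tested gene in adult KI/KI against WT (horizontal axis) and in P1 cKO against floxed (vertical axis), n = 3 hearts per group. Stars are the 8 connexins and conduction system genes tested in both comparisons, and colored points are genes of the 4 other lists. Nrg1 is high on both axes, Hcn4 and Cpne5 are below 0 on both, Gja5, Panx2 and Cacna1d are far below 0 only for cKO, and Cntn2 lies left of 0 for KI/KI and above 0 for cKO.

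The genes with a pattern closest to each of the 2 genes called in cKO hearts were found among 15729 genes by the root mean square difference of log2 levels, each centered on its own mean, over the 12 hearts. For Gja5, whose own log2 SD was 0.81, they were Cacna1d (0.29), Tceanc (0.29) and Rfx3 (0.31). Cacna1d averaged 10.8, 14.6, 37.7 and 13.9 CPM in WT, KI/KI, floxed and cKO hearts, and Rfx3, a ciliary transcription factor, 7.97, 7.31, 19.0 and 9.92 CPM. For Etv1, whose SD was 0.28, they were Nat2 (0.09), Fam126a (0.11) and Tceal1 (0.11). Fam126a averaged 91.4, 98.8, 129 and 92.8 CPM in the same order.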

How the data were processed

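Raw counts per gene were deposited as whole numbers, without normalization, for 12 whole hearts. Per the labels and the study's methods, polyA libraries (KAPA mRNA HyperPrep) were trimmed with Trim Galore, aligned to mm10 with STAR 2.7.2b, handled with SAMtools 1.9 and counted with HTSeq. The strand setting is not given in the sources used here. The 9 genes and all gene lists were chosen with earlier results of these data known.

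The tests were run with edgeR 4.0.16 (R 4.3.3) on the 6 libraries of a comparison, after TMM normalization and filterByExpr, as the robust quasi-likelihood test with Benjamini-Hochberg adjustment over all tested genes and calls at an adjusted p under 0.05. Each SE is the size of the log2 fold change over the root of its F statistic. Genotype effects were compared by an interaction term over 12 libraries. DESeq2 1.42.0 and limma-voom (limma 3.58.1) were alternatives. Levels are TMM-normalized CPM over 12 libraries, and log2 levels used a prior count of 2. Ratios within hearts were compared by a two-sided exact permutation test. Exon lengths came from GENCODE on GRCm38. No 2 libraries of a group held identical counts (chi-square per degree of freedom 19.8 to 142). The floor of 3 counts corresponds to at most 0.081 CPM of the raw library total and covers counting error only. Levels in the text are TMM-scaled, so 3 counts can read higher, as for Gjd3 in KI/KI replicate 6 (0.0843 CPM). Calculations were tested on simulated data.

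The text names the 9 genes, Lemd2, from each list up to 4 called genes with a fold above 2 and the smallest p (for KI/KI, the 2 with the smallest unadjusted p), and the 3 genes closest in pattern to each of the 9 that was called in cKO hearts. Other names are marked as chosen after their values were seen. Some genes of the lists enter the counts but are not reported here by name.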

Additional observations from a re-analysis of the deposited data

Results flagged for a closer look

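Among the connexins and conduction system genes and the genes of the 4 other lists, 5 had genotype effects that differed between the 2 models. These were called by the interaction test (edgeR, adjusted p under 0.05), which called 2.51% of all 15729 tested genes. Each difference is given as the cKO effect minus the KI/KI effect on the log2 scale. For Etv1 the difference was -0.73 ± 0.14 SE (adjusted p = 0.0304), with 3 of 3 cKO hearts below the floxed hearts and overlapping adult groups. For Panx2 it was -1.50 ± 0.31 (adjusted p = 0.0347) and for Cacna1d -1.87 ± 0.28 (adjusted p = 0.0125), with 3 of 3 cKO hearts lower in each and overlapping adult groups. For Cntn2 it was 2.35 ± 0.46 (adjusted p = 0.0312), with 3 of 3 KI/KI hearts below WT and cKO hearts overlapping floxed hearts. For Cxadr it was 0.38 ± 0.08 (adjusted p = 0.0341), with 3 of 3 cKO hearts above floxed hearts. With 1 heart left out at a time, Cacna1d was called in all 12 fits (edgeR, adjusted p 0.00693 to 0.0469). The other 4 calls were lost in most such fits, with no change of sign. Etv1 was called in 5 of 12, and Panx2 in 5, without KI/KI replicate 5, floxed replicate 3 or any 1 cKO heart, with an adjusted p of up to 0.101 in the rest. Cxadr was called in 4, without WT replicate 3, floxed replicate 3, or cKO replicate 4 or 6 (up to 0.0979), and Cntn2 in 3, without floxed replicate 3, or cKO replicate 4 or 6 (up to 0.0995). Age differs along with allele between the models and cannot be told apart from it.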

How the results depend on the processing

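With 3 hearts per group, the calls depended most on which hearts and which test were used. Total counts ran from 37063669 to 44789753, and the TMM factors that scale them were 0.839 to 0.958 in adult and 1.08 to 1.18 in P1 hearts. Among the 9 genes, the number called in KI/KI against WT was 1 with DESeq2 and 0 to 1 when 1 heart was left out. In cKO against floxed it was 1 when a fold above 2 was also required and 0 to 2 when 1 heart was left out. In adult WT against floxed it was 5 to 6 without 1 heart, and 4 with a minimum of 10 counts in every library, which Gjd3 does not reach. For the interaction it was 2 with DESeq2, 0 with a fold above 2, and 0 to 1 without 1 heart. The share of all tested genes called without 1 heart is not given, so these counts are not read as particular to the 9 genes. Gja5 and Etv1 kept their cKO calls in all 10 alternatives that used the same hearts. With the Y-linked level as a covariate, adult WT against floxed gave 4 calls, with an adjusted p (edgeR) of 0.115 for Etv1, 0.137 for Gjd3 and 0.0467 for Hcn4. The mean log2 level of the Y-linked genes was 6.13 to 6.22 in WT and 6.07 to 6.11 in floxed hearts, without overlap. In that comparison the covariate cannot be told apart from age, so no conclusion is drawn from this fit.

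Values that changed sign were all uncalled. Gja1 in cKO hearts came to -0.00023 with the Y-linked covariate and Hcn2 in cKO hearts to -0.056 with the atrial covariate. In adult WT against floxed, Hcn4 came to -0.53 with the atrial covariate and Tbx3 to -0.28 with the Y-linked covariate. The mean log2 level of the atrial markers also separated WT (6.74 to 7.02) from floxed hearts (5.90 to 6.37). Neither covariate can therefore be told apart from age in that comparison. Without 1 heart, log2 fold changes ranged in KI/KI hearts from -0.42 to 0.002 for Gja5 and from -0.045 to 0.21 for Hcn2, in cKO hearts from -0.075 to 0.30 for Gja1, from -0.04 to 0.17 for Gjc1 and from -0.24 to 0.79 for Hcn2, and with age from -0.28 to 0.10 for Gja1. For the interaction they ranged from -0.18 to 0.18 for Gja1, from -0.20 to 0.03 for Gjc1, from -0.42 to 0.32 for Gjd3, from -0.35 to 0.70 for Hcn2 and from -0.09 to 0.56 for Hcn4. The cause was not tested.

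No paired analysis was possible because the genotype groups share no replicate numbers (1 to 3 in controls, 4 to 6 in mutants). WT and floxed hearts share numbers, but deviations of same-numbered hearts from their group means correlated at -0.24, -0.29 and -0.54 across genes. Deviations from means of 3 hearts cannot show whether same-numbered samples share more than a number. With the replicate block, 5 of the 9 genes were called with age and 0 for the interaction, where Etv1 was -0.73 with an adjusted p of 0.121 (edgeR).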
